A study of Mus musculus with 8 samples.

Results

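Antioxidant genes were read in whole hearts of control mice and of mice in which heart muscle lacks Ssbp1, which encodes mtSSB, the protein that coats single-stranded mitochondrial DNA. The set holds 10 genes, chosen by their names in the table of normalized counts: Nqo1, Hmox1, Gclc, Gclm, Srxn1 and Txnrd1, which are established targets of the transcription factor NRF2, beside Sod1, Sod2, Prdx3 and Gpx4, antioxidant enzymes with a steady basal expression. All 10 were found among the 55383 rows of the table, and all 10 passed the filter on low values (normalized counts of 10 or more in 2 or more of the 4 hearts compared), which kept 14522 genes. Of the constitutive enzymes, Sod2 and Prdx3 work in the mitochondrial matrix, whereas Sod1 is mainly cytosolic and Gpx4 has cytosolic and mitochondrial forms, so that only a part of this set is mitochondrial.

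NRF2, encoded by Nfe2l2, is held at a low level by KEAP1, which delivers it to a ubiquitin ligase for degradation. When oxidants or electrophiles modify KEAP1, NRF2 accumulates, pairs with a small MAF protein and binds antioxidant response elements near genes for glutathione synthesis, thioredoxin reduction and quinone or haem detoxification. Because NRF2 is controlled largely through the stability of the protein, the mRNA levels of its targets are a common readout of its activity. The matrix enzymes SOD2 and PRDX3 act in sequence on the superoxide and hydrogen peroxide that the respiratory chain releases, which is abundant in heart muscle.

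Total RNA of hearts from 5-week-old mice on an inbred C57BL/6N nuclear background was sequenced in strand-specific TruSeq libraries. The knockout mice (Ssbp1-/- in the labels) carried a loxP-flanked Ssbp1 exon 3 and Cre recombinase under the muscle creatine kinase promoter (Ckmm), which is active in heart and skeletal muscle, so that the fibroblasts, vessels and blood cells of the heart keep the gene. The controls (Ssbp1+/+ in the labels) carried, by the study's methods, the loxP-flanked gene without Cre, and the labels themselves do not state which mouse had Cre. Title and genotype field named the same genotype for 2 control and 2 knockout mice, and contradicted each other for 2 further mice, which enter no comparison. Pairs of values are given below with replicate 1 first and replicate 2 second.

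The 4 libraries held 24067849 and 19716305 reads in control hearts and 25558246 and 25682093 in knockout hearts, and mitochondrial transcripts took 62.7 and 66.7% of them in control hearts and 58.0 and 56.2% in knockout hearts. Ssbp1 itself was at a normalized count of 177 and 216 in control hearts and at 170 and 163 in knockout hearts. Both knockouts were below both controls, but the log2 fold change of -0.23 (95% interval -0.63 to 0.17) did not pass the limma test (adjusted p = 0.890). Reads from exons outside the deleted one and from cells without Cre also count here, so these values do not measure how complete the deletion was. Summed over 8 cardiomyocyte markers, the hearts were alike, with 634200 and 598900 in control hearts and 630400 and 606100 in knockout hearts.

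Because NRF2 targets are defined by antioxidant response elements, the promoters of the members are shown where they hold the letters of such an element. RefSeq promoters on GRCm38.p6, each running from 250 bases before to 50 bases after a transcription start, were searched on both strands for the core TGACNNNGC and for TGANTCAGC, and some sequences match both. Of 13 member promoters belonging to 8 genes, 4 held the core, 1 each of Srxn1, Gclm, Txnrd1 and Sod1, against 12.4% of all 32851 promoters in the table. The second pattern stood in the promoter of Srxn1 alone among the members, against 1.19% of all promoters. The matches follow with 10 bases on each side, the matched letters in capitals, all 5′ to 3′ on the plus strand, which is the coding strand of all 4 genes.
Srxn1, chr2:152105469-152105497, TGANTCAGC on the gene's own strand at -45 to -37 from the start: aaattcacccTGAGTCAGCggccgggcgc
Srxn1, chr2:152105542-152105570, core on the opposite strand at 29 to 37 past the start: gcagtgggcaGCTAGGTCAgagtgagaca
Gclm, chr3:122245413-122245441, core on the opposite strand at -134 to -126: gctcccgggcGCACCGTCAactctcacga
Txnrd1, chr10:82859104-82859132, core on the opposite strand at -92 to -84 of 1 of its 3 starts: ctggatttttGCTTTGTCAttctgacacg
Sod1, chr16:90220696-90220724, core on the opposite strand at -56 to -48: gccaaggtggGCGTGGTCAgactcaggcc
A match describes the letters and is not a measured binding site. Nqo1, Sod2, Prdx3 and Gpx4 have no match, which says only that these letters are not in these windows, since response elements can lie farther away. Hmox1 and Gclc were named only.

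The comparison sets knockout hearts against control hearts for the genes that NRF2 drives and for the enzymes of basal antioxidant defence. All 6 NRF2 targets were higher in both knockout hearts than in either control, by 1.21-fold for Gclc to 1.64-fold for Srxn1. Such a separation upward was found in 18.1% of all genes tested, and downward in 17.5%. The members were chosen with earlier results of these data known, so these shares stand beside the count and are not a test of it. Of the 4 constitutive enzymes, Sod1 and Gpx4 were higher in both knockouts, by 1.08- and 1.14-fold, and Sod2 and Prdx3 overlapped between the groups. No single member passed the test across all genes, so that with 2 hearts a group the differences are described by their values and intervals. Fewer cells of a type and less RNA per cell cannot be told apart in RNA of whole hearts.

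**Figure D1:**
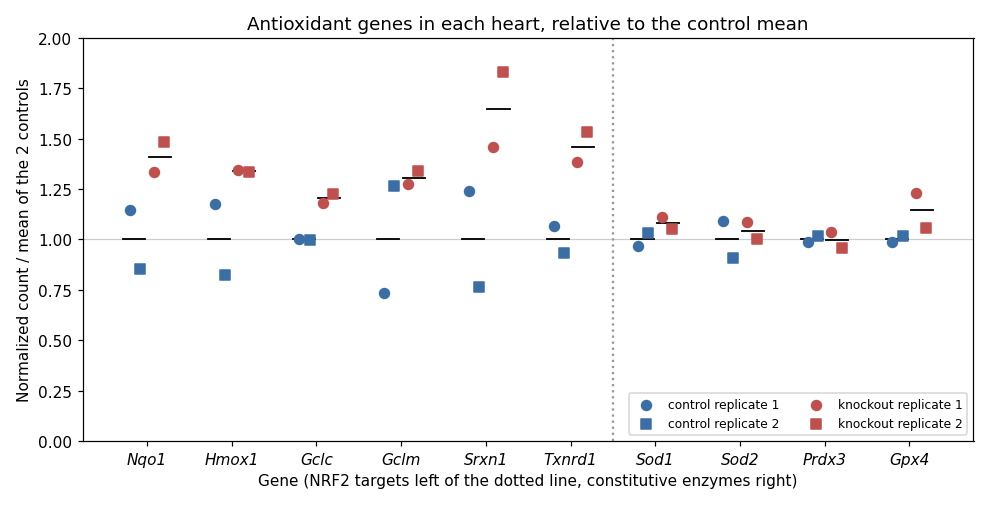
Normalized count of each member in each of the 4 hearts, divided by the mean of the 2 controls of that gene (vertical axis, no unit, from 0). Blue marks controls, red knockouts, circles replicate 1, squares replicate 2, and bars the group means. For the NRF2 targets, left of the dotted line, both red points lie above both blue points, although Gclm control replicate 2 lies just below them. For Sod2 and Prdx3 the colours overlap.

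Txnrd1 and Srxn1 serve the thioredoxin and peroxiredoxin system. Txnrd1, on chromosome 10 at 82833951-82897712 of GRCm38, encodes the cytosolic thioredoxin reductase, a selenoprotein that passes electrons from NADPH to thioredoxin. Its normalized count was 508 and 443 in control hearts and 658 and 728 in knockout hearts. The knockouts were 1.46-fold higher, with group means of 475.7 ± 45.9 and 693.2 ± 49.6 (SD, n = 2 each), a gap several times the spread within either group. On the log2(normalized count + 1) scale the difference was 0.54 with a standard error of 0.12 and a 95% interval of 0.24 to 0.84, and the adjusted p of limma was 0.553. It rested on 329 to 952 reads per library, the most of the 6 NRF2 targets. Eid3, a gene on the same strand within Txnrd1, was counted apart at 12.1 to 30.6.

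Srxn1, on chromosome 2 at 152105516-152111376, encodes sulfiredoxin, which repairs peroxiredoxins whose catalytic cysteine has been overoxidized. The controls were at 201 and 124, the knockouts at 237 and 298. The groups were apart, with knockout replicate 2 highest and control replicate 2 lowest. The difference of 0.75 (log2, SE 0.26, interval 0.12 to 1.37, adjusted p = 0.773 by limma) was, with all 4 hearts, the largest of the members, and it exceeded that of 97.2% of all genes tested. It depends on control replicate 2, the shallowest library of the 4, where the gene had 92 reads. Leaving that heart out gave 0.40, and leaving out control replicate 1 gave 1.09.

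Nqo1 encodes the quinone reductase that detoxifies quinones by a transfer of electron pairs, and lies on the minus strand of chromosome 8 at 107388225-107403206. It was at 274 and 203 in control hearts and at 319 and 354 in knockout hearts. Both knockouts were above both controls, 1.41-fold in the means, and the log2 difference of 0.51 had a standard error of 0.18 and an interval of 0.08 to 0.94 (adjusted p = 0.788). Leaving out control replicate 2 lowered it to 0.30, and leaving out control replicate 1 raised it to 0.72. Hmox1, on chromosome 8 at 75093621-75100589, encodes heme oxygenase 1, which degrades haem. It was the lowest member, at 51.8 and 36.4 in control hearts and 59.3 and 58.9 in knockout hearts, or 27 to 77 reads. The knockouts were nearly equal and above both controls, but the interval of the log2 difference of 0.44 ran from -0.23 to 1.11 (SE 0.28, adjusted p = 0.872). Here too a control decides the size, with 0.19 without control replicate 2 and 0.69 without control replicate 1.

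The 2 subunits of glutamate-cysteine ligase, the rate-limiting enzyme of glutathione synthesis, differed in how tightly the hearts agreed. Gclc, the catalytic subunit on chromosome 9 at 77754535-77794485, was at 124.1 and 123.9 in control hearts and at 146.6 and 152.2 in knockout hearts. This was the tightest pattern among the NRF2 targets and the smallest difference, 1.21-fold or 0.27 on the log2 scale (SE 0.16, interval -0.12 to 0.65, adjusted p = 0.852). Gclm, the modifier subunit on chromosome 3 at 122245557-122270732, was at 118 and 203 in control hearts and at 205 and 215 in knockout hearts. Control replicate 2 reached nearly the level of the knockouts, so that the groups were apart only by 203.4 against 205.1. The log2 difference was 0.43 (SE 0.26, interval -0.21 to 1.07, adjusted p = 0.861), and 1 control decides it: leaving out control replicate 1 gave 0.05 and leaving out control replicate 2 gave 0.82.

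**Figure D2:**
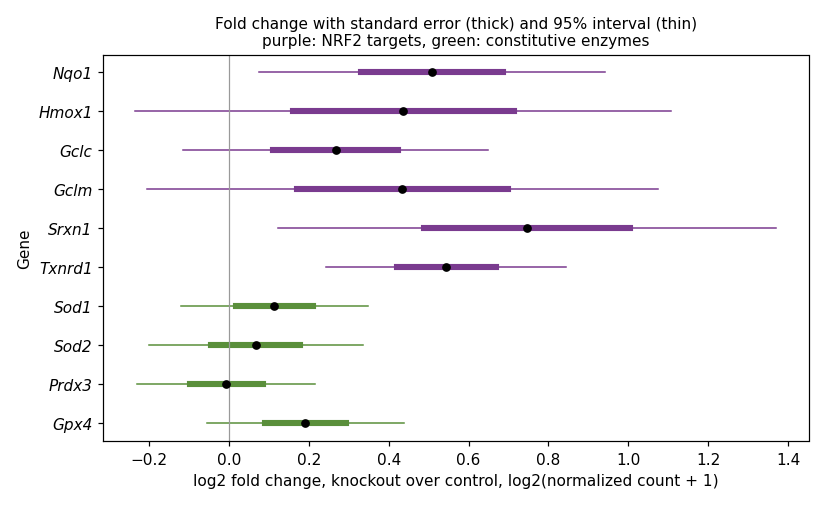
Log2 fold change of each member, knockout over control, on the log2(normalized count + 1) scale (horizontal axis). Points are estimates of limma over 2 hearts a group, thick bars their standard error and thin bars the 95% interval. The intervals of Nqo1, Srxn1 and Txnrd1 lie above 0, those of the other 7 members include it, and those of all 6 NRF2 targets are wider than those of the 4 constitutive enzymes.

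Among the constitutive enzymes, Sod2, the manganese superoxide dismutase of the matrix on chromosome 17 at 13006846-13040063, had the highest counts of all members. It was at 6162 and 5141 in control hearts and at 6139 and 5657 in knockout hearts. The groups overlapped, and the log2 difference of 0.07 had an interval of -0.20 to 0.33 (SE 0.11, adjusted p = 0.956). Prdx3, the peroxiredoxin of the matrix, on the minus strand of chromosome 19 at 60864051-60874556, was at 1482 and 1525 in control hearts and at 1557 and 1437 in knockout hearts. Both controls lay between the knockouts, and the interval of -0.23 to 0.22 around -0.0069 bounds a difference in either direction (SE 0.09, adjusted p = 0.995).

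Sod1, the copper-zinc superoxide dismutase on chromosome 16 at 90220754-90226329, was at 993 and 1063 in control hearts and at 1140 and 1083 in knockout hearts. The groups were apart by a small margin, with a log2 difference of 0.11 and an interval of -0.12 to 0.35 (SE 0.10, adjusted p = 0.906). Gpx4, on chromosome 10 at 80047166-80056439, encodes the glutathione peroxidase that reduces lipid hydroperoxides in membranes. It was at 2474 and 2550 in control hearts and at 3093 and 2655 in knockout hearts. Knockout replicate 1 stood well above the other hearts, and the log2 difference was 0.19 (SE 0.10, interval -0.06 to 0.44, adjusted p = 0.833), or 0.08 without that heart and 0.30 without knockout replicate 2. The processed pseudogene Gpx4-ps2, a near-identical copy elsewhere in the genome, was listed at 179 and 155 in control hearts and 151 and 145 in knockout hearts, so that the split of reads between them is uncertain.

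Taken as a set, the 6 NRF2 targets had a median log2 difference of 0.47 (range 0.27 to 0.75), and the 4 constitutive enzymes one of 0.09 (range -0.01 to 0.19), beside a median of 0.002 over all 14522 genes tested. Both knockouts were above both controls for 6 of 6 NRF2 targets and 2 of 4 constitutive enzymes, and below both for 0 members. Over all genes tested these shares were 18.1% and 17.5%. The counts of members above both controls were the same with equal nuclear totals and with TMM scaling of the nuclear genes. At an adjusted p under 0.05 limma called 0 of the 10 members, and 17 genes in all, 0.117% of those tested. edgeR and DESeq2 on the recovered reads also called 0 members, beside 0.131% and 0.427% of all genes. At an unadjusted p under 0.05, each of the 3 tools picked 3 NRF2 targets and 0 constitutive enzymes, and limma picked 3.08% of all genes as higher. In either direction, limma picked 887, edgeR 888 and DESeq2 526 of all 14522 genes. The NRF2 count fell to 1 without the mean-variance trend of limma, where 930 of all 14522 genes were picked. It also fell without knockout replicate 2 and without control replicate 2, and the constitutive count rose, by Gpx4, without knockout replicate 2. These refits leave 1 heart in a group. No test of the difference between the 2 sets was made.

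Summed over the 6 NRF2 targets, the normalized counts were 1277 and 1134 in control hearts and 1625 and 1806 in knockout hearts. The 4 constitutive enzymes together gave 11110 and 10280 in control hearts and 11930 and 10830 in knockout hearts, so that here the groups overlapped. For every 1000 normalized counts of the constitutive enzymes, a heart held 115.0 and 110.4 of the NRF2 targets in control hearts and 136.2 and 166.7 in knockout hearts. This ratio lies within a library and does not depend on the scaling between libraries. Sod2 makes up the larger share of its denominator.

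As both knockouts lay above both controls for each NRF2 target, leaving out 1 heart could not change their direction, but it changed the size. Their median log2 difference was 0.66 without control replicate 1, 0.35 without control replicate 2, 0.53 without knockout replicate 1 and 0.44 without knockout replicate 2. The constitutive enzymes ranged from 0.04 to 0.14 in the same refits. Across all 14 alternative settings each of the 6 NRF2 targets, Sod1 and Gpx4 had a positive estimate in 14, Sod2 in 13 and Prdx3 in 4. These settings reuse the same 4 hearts, and some leave the estimate itself unchanged. For genes whose groups were apart, the refits without 1 heart could only be positive, so the 14 are no added support. Scaling the libraries to equal nuclear totals, which takes out the lower mitochondrial share of the knockouts, gave medians of 0.49 and 0.10 for the 2 sets, with a median of 0.016 over all genes.

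**Figure D3:**
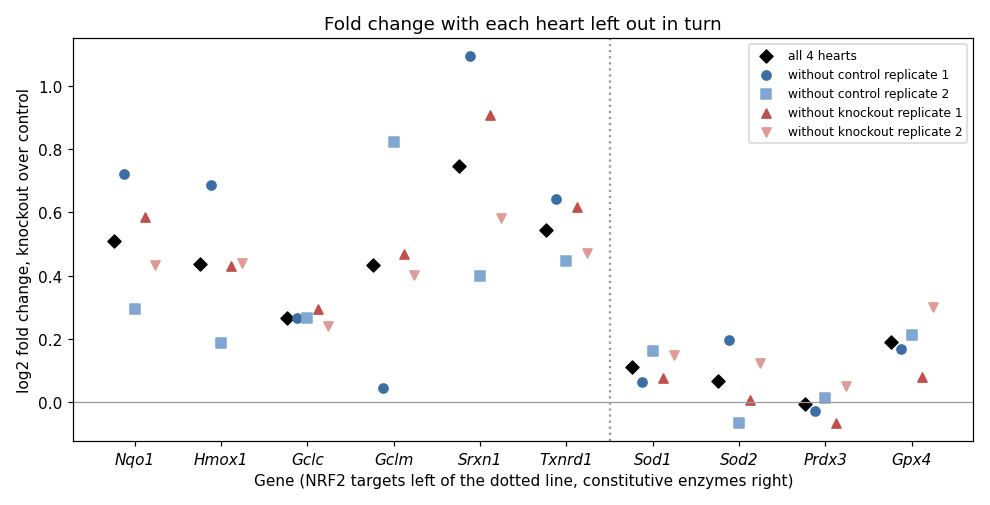
Log2 fold change of each member with all 4 hearts (black diamonds) and with each heart left out in turn (blue: a control left out, red: a knockout left out), on the log2(normalized count + 1) scale. Gclm moves from 0.05 to 0.82 and Srxn1 from 0.40 to 1.09, Gclc stays between 0.24 and 0.29, and Sod2 and Prdx3 fall on both sides of 0.

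Levels between genes were compared per kb of exon, counting all annotated exons. In the controls the order of the means was Gpx4 (1457 normalized counts per kb), Prdx3 (1017), Sod2 (565), Sod1 (259), Nqo1 (154), Txnrd1 (67.1), Srxn1 (57.7), Gclc (32.9), Gclm (25.6) and Hmox1 (25.2). Every constitutive enzyme was thus above every NRF2 target, and in the knockouts too the lowest constitutive enzyme, Sod1 at 280, stood above the highest target, Nqo1 at 217. Of neighbours in this order, Txnrd1 and Srxn1 overlapped between hearts in both groups, and so did Gclm and Hmox1. The 10008 bp of annotated exon of Sod2 and the 7086 bp of Txnrd1 count every annotated isoform, whether or not the heart uses it, and the values per kb depend on this length.

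Of the regulators of NRF2, Nfe2l2 mRNA was at 475 and 516 in control hearts and 529 and 528 in knockout hearts, a log2 difference of 0.09 (SE 0.11, adjusted p = 0.935). Keap1 was at 365 and 392 in control hearts and at 423 and 400 in knockout hearts (0.12, adjusted p = 0.917). Both were higher in both knockouts by a margin close to the spread between hearts. Sqstm1 encodes p62, which binds KEAP1 and targets it for autophagy, and is itself an NRF2 target. It was at 1747 and 2005 in control hearts and at 2653 and 2634 in knockout hearts, with a log2 difference of 0.50 (SE 0.10). limma gave it an adjusted p of 0.445, edgeR 0.425 and DESeq2 0.0119, so that its call depends on the tool.

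Mafg, a small MAF partner of NRF2, was at 382 and 426 in control hearts and at 497 and 493 in knockout hearts (0.30, SE 0.12, adjusted p = 0.806), whereas the other small MAF genes overlapped between the groups, Maff with -0.55 and Mafk with 0.13. The repressors that compete with NRF2 overlapped as well, Bach1 with 0.15 and Bach2 with -0.52, and so did Dpp3 (-0.19), whose product competes with NRF2 for KEAP1. For the ligase and kinase genes that control NRF2 degradation the log2 differences were 0.09 for Rbx1, 0.07 for Btrc, -0.02 for Cul3 and -0.02 for Gsk3b, and the related factor Nfe2l1 had 0.03. Of the 14 regulator genes 5 were higher in both knockouts and 0 lower, against 18.1% and 17.5% of all genes tested, and the median was 0.08. limma called 0 of the 14, with 2 higher at an unadjusted p under 0.05, against 3.08% of all genes.

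Of 28 other NRF2 targets, 27 passed the filter on low values, and limma called 0 of them. At an unadjusted p under 0.05 of limma, 2 were higher, against 3.08% of all genes tested. Both knockouts were above both controls for 11 and below for 1, against 18.1% and 17.5% of all genes. The median of 0.14 was lower than that of the 6 members. Abcc4, an efflux pump for glutathione conjugates and cyclic nucleotides, was at 150 and 121 in control hearts and 207 and 296 in knockout hearts (0.87, SE 0.22, adjusted p = 0.645). Slc7a11, the cystine importer of the xc- antiporter, had 5.86 and 0 in control hearts and 23.1 and 37.5 in knockout hearts. As 1 control held no read of it, no fold change is given. Slc7a11 passed the filter only by its values in the knockouts, so that it could count only as higher, and it is among the 11 and the 2. The remaining genes named by their p were Esd, an esterase (0.26, adjusted p = 0.806), and Aox1, aldehyde oxidase (0.24, adjusted p = 0.834).

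Glutathione supply and turnover was covered by 17 genes, of which 16 passed the filter. Here 8 were higher in both knockouts and 1 lower, against 18.1% and 17.5% of all genes tested, and the median was 0.25. limma called 0, with 4 higher at an unadjusted p under 0.05, against 3.08% of all genes. Slc7a11 and Ggt7, among the 8, passed the filter only by their values in the knockouts, so they could count only as higher. Cth (26.4 and 4.04 in control hearts) and Chac1 (8.80 and 56.6) are also among the 8. Each had 1 control under 10, so that neither could have passed the filter and counted as lower. Slc7a11 is also among the 4. Slc3a2, the heavy chain that carries SLC7A11 and other amino acid transporters to the cell surface, was at 173 and 179 in control hearts and at 374 and 449 in knockout hearts, more than any member in relative terms. Its log2 difference was 1.21 (SE 0.15), with an adjusted p of 0.082 by limma, 0.0665 by edgeR and 5.39e-05 by DESeq2. limma itself called it when only genes with at least 50 in 2 libraries were tested (adjusted p = 0.0487). Slc1a4, a transporter of neutral amino acids, was at 34.2 and 26.9 in control hearts and 70.0 and 84.9 in knockout hearts (1.32, adjusted p = 0.5004). Slc25a39, which carries glutathione into the mitochondrial matrix, was at 598 and 595 in control hearts and at 867 and 797 in knockout hearts (0.48, SE 0.10, adjusted p = 0.530).

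The mitochondrial redox enzymes beside the members had values in both directions. Over 19 gene identifiers of 18 symbols, 8 were higher in both knockouts and 3 lower, against 18.1% and 17.5% of all genes tested, with a median of 0.06. Both identifiers of Nnt are among the 8, so that this gene counts 2 times. limma called 0. Over all 14522 genes tested 439 were lower at an unadjusted p under 0.05, and of this list 1 was. That was Ucp3, a carrier of the inner membrane, at 242 and 594 in control hearts and 184 and 179 in knockout hearts (-1.06, adjusted p = 0.797), where control replicate 2 stood apart: the difference was -0.42 without it and -1.71 without control replicate 1, when it was called (adjusted p = 0.0329). Glrx5, a glutaredoxin of iron-sulfur cluster assembly, had 0.31 (adjusted p = 0.806), and Mgst1, a membrane glutathione transferase, -0.88 (adjusted p = 0.815), which was -0.21 without knockout replicate 2 and -1.55 without knockout replicate 1. Nnt, the transhydrogenase that makes NADPH in the matrix, is listed under 2 overlapping gene identifiers with 0.18 and 0.15, whose split of reads is uncertain.

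The 16 cytosolic, peroxisomal and secreted enzymes had a median of 0.06, with 4 higher in both knockouts and 3 lower, near the shares of all genes (18.1% and 17.5%), and 0 called by limma, none of them at an unadjusted p under 0.05 either. The genes with the smallest p were Sod3, the extracellular superoxide dismutase (-0.47, adjusted p = 0.806), Prdx6 (0.23, adjusted p = 0.806), Gpx7 (-0.45, adjusted p = 0.862) and Cat, catalase of the peroxisome (0.15, adjusted p = 0.879). The basal enzymes outside the member set thus included values on both sides of 0, as the members Sod2 and Prdx3 did. Over the 24 genes of selenoproteins and selenocysteine incorporation, to which Txnrd1 and Gpx4 also belong by function, the median was 0.002, and 3 were higher in both knockouts and 3 lower, each a smaller share than over all genes. Of these 24 limma called 0, and 1, Selenop, was lower at an unadjusted p under 0.05, against 439 of all 14522 genes tested. Selenop, the secreted selenium carrier, was at 2886 and 2878 in control hearts and at 2452 and 2404 in knockout hearts (-0.25, SE 0.08, adjusted p = 0.753), beside Selenos (0.34), Scly (-0.42) and Gpx3 (-0.26).

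**Figure D4:**
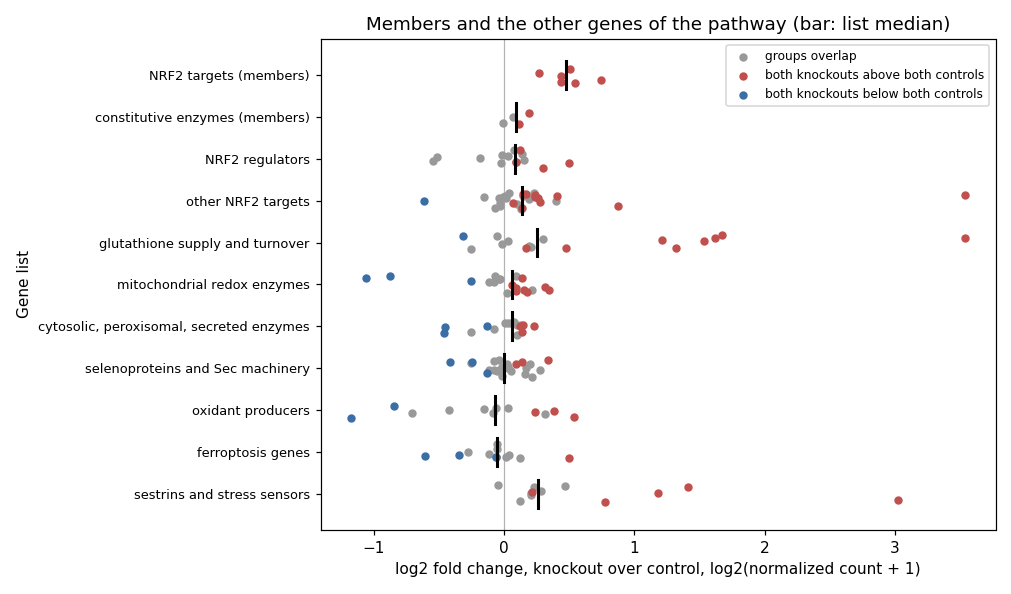
Log2 fold change, knockout over control, on the log2(normalized count + 1) scale (horizontal axis) for the members and the other genes of the pathway, 1 row for each list and 1 point for each gene that passed the filter. Red points had both knockouts above both controls, blue points both below, grey points overlapped, and black bars are list medians. The 6 NRF2 targets have a median of 0.47, and the other lists have medians from -0.07 to 0.26. Slc7a11, at the far right of 2 lists, had no read in 1 control, so that its position depends on the pseudocount.

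The list of sestrins and stress sensors held the 1 gene of the pathway lists that limma called. Trib3, a pseudokinase induced by ATF4, was at 16.6 and 25.6 in control hearts and at 152 and 202 in knockout hearts. It rose by 3.03 on the log2 scale (SE 0.30, adjusted p = 0.040), and the call was lost with equal nuclear totals (adjusted p = 0.0519), with no filter on low values (0.0536), without the mean-variance trend of limma (0.323) and without control replicate 2, knockout replicate 1 or knockout replicate 2 (0.0713 to 0.331). Atf4, the transcription factor of the integrated stress response, was at 513 and 455 in control hearts and at 1007 and 1192 in knockout hearts (1.18, SE 0.13), with an adjusted p of 0.060 by limma, 0.0558 by edgeR and 1.31e-09 by DESeq2, and of 0.0408 by limma over genes with at least 50 in 2 libraries. Sesn2, a sestrin that both ATF4 and NRF2 are known to induce, was at 48.9 and 36.4 in control hearts and 105 and 124 in knockout hearts (1.41, SE 0.25, adjusted p = 0.318). Ddit3, the stress factor CHOP, was at 86.0 and 60.6 in control hearts and 119 and 129 in knockout hearts (0.77, adjusted p = 0.704). Of the 12 genes 5 were higher in both knockouts and 0 lower, against 18.1% and 17.5% of all genes tested. At an unadjusted p under 0.05 of limma 4 were higher, the genes just named, against 3.08% of all genes. This list, like the others, was written with earlier results of these data known. Over all pathway lists edgeR called 1 gene, Trib3, and DESeq2 called 5, Trib3, Atf4, Slc3a2, Sqstm1 and the transferrin receptor gene Tfrc.

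Markers of other cells moved with the groups in part, and their part in the values of the antioxidant genes was not tested. The sum over 10 macrophage markers was 4952 and 3672 in control hearts and 3560 and 3586 in knockout hearts. Of these, 5 of 10 were below both controls, against 17.5% of all genes tested, and the median was -0.24. The log2 difference was positive for 3 of them, Fcgr1 (0.41), Csf1r (0.07) and Adgre1 (0.05). Fibroblast markers summed to 15330 and 14290 in control hearts and 11170 and 13680 in knockout hearts, 3 of 6 below both controls, against the same 17.5%. The sum over the erythroid markers was highest in knockout replicate 2, at 41930 against 14460 to 18980 in the other hearts, with globin genes such as Hbb-bs (19140 in that heart) the main part. The log2 difference was positive for 5 of the 6 tested and -0.58 for Slc4a1. Slc4a1 was highest in control replicate 2, at 57.9 against 48.2 in knockout replicate 2. Without knockout replicate 2 the NRF2 targets had the median of 0.44 given above, and whether blood content has a part in their values was not tested. Endothelial markers summed to 10790 and 9922 in control hearts and 10290 and 11200 in knockout hearts. The 6 neutrophil markers summed to 7.82 and 5.39 in control hearts and 5.77 and 28.3 in knockout hearts. Ly6g, Mpo and Elane were at 0 in all 4, and most of the sum in knockout replicate 2 was S100a9 (17.6) and S100a8 (8.42). The 6 adipocyte markers summed to 0.977 and 6.74 in control hearts and 2.47 and 1.53 in knockout hearts, with Lep and Cidec at 0 in all 4 and Plin1 at 5.39 in control replicate 2.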

How the data were processed

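The authors mapped the strand-specific reads (STAR 2.7.3a) to the GRCm38.p6 genome, in which nuclear copies of mitochondrial DNA were masked, counted them per gene with Salmon 1.1.0 on GENCODE vM24 plus their own mitochondrial annotation, and deposited a signal per gene, the count divided by 1 size factor of DESeq2 1.26.0 per library, not raw counts. All of these values (100%) are whole multiples of the value of 1 read within 0.001, so that reads could be recovered. Their table of log2 fold changes, standard errors and p-values holds their own comparison and was not used. The small RNA and other assays of the study were not analysed here.

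Genes with a signal of 10 or more in 2 or more libraries entered a two-sided limma test (version 3.58.1, R 4.3.3) of 2 controls against 2 knockouts, fitted to log2(normalized count + 1) with trended variances, with Benjamini-Hochberg adjustment over all 14522 genes and calls at 0.05. Fold changes on this scale understate those of low genes. A p above the threshold does not show that the groups were alike. The labels give each library its own mouse number, so the p-values measure the spread between mice. Control replicate 1 and both knockouts have consecutive mouse numbers. That of control replicate 2 stands apart from them, next to those of the mice in no group. Whether this has a part in the values was not tested. Alternatives were other pseudocounts, filters and scalings, a replicate block, each heart left out, limma without the trend, and tests of the recovered reads by edgeR 4.0.16 and DESeq2 1.42.0. Counts of members that did not overlap were also taken under 2 other scalings, chosen after seeing the data.

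The members and the 18 gene lists were chosen with earlier results of these data known. Named were all members, all regulators of NRF2 that passed the filter and, per pathway list, the called genes and those with the smallest p up to 4 in all. Some genes stand in more than 1 list (Slc7a11, Gsr, Txn1, Prdx1, Aox1, Gpx1, Gpx3, Txnrd2, Msrb1). Positions and exon lengths came from GENCODE vM21 on GRCm38, in which 55107 of 55383 identifiers matched; the deposited counts used vM24. Promoters came from RefSeq, in which 8 of the 10 members matched. The limma, edgeR and DESeq2 steps were tested on simulated data. Python 3.11.15 with matplotlib 3.10.9 drew the figures.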

Additional observations from a re-analysis of the deposited data

Results flagged for a closer look

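For the mice 585H and 586H, the title of a sample and its genotype field name different genotypes, so they belong to no group, and no group is read from their values. They are listed because some members were above the higher of the 2 controls in them. The share of all genes above the higher control was not counted in these mice, so the members named have no background beside them. In the mouse 585H this held for all 6 NRF2 targets, with normalized counts of 348 for Nqo1, 67.3 for Hmox1, 166 for Gclc, 239 for Gclm, 262 for Srxn1 and 719 for Txnrd1, and for Sod1 (1223) and Gpx4 (2833), while Sod2 (5598) and Prdx3 (1506) were within the range of the controls. In the mouse 586H it held for Nqo1 (281), Sod1 (1117), Sod2 (6190) and Gpx4 (2702), while Gclm (142), Srxn1 (152) and Txnrd1 (502) were within that range and Hmox1 (33.9), Gclc (111) and Prdx3 (1460) below it. For every 1000 normalized counts of the constitutive enzymes, the mouse 585H had 161.4 of the NRF2 targets and the mouse 586H 106.5.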

How the results depend on the processing

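All alternatives left 0 NRF2 targets and 0 constitutive enzymes called. Genes called in all (17 with limma) were 62 with DESeq2, 30 with a replicate block, 6 without the mean-variance trend, and 6 (without either knockout) to 33 (without control replicate 1) with 1 heart left out. Of the pathway lists 1 gene was called; this became 5 with DESeq2, 3 with at least 50 in 2 libraries, 3 with the replicate block (Trib3, Slc3a2, Atf4 in both), 0 with equal nuclear totals, with no filter or without the trend, and 0 to 2 with 1 heart left out. The causes were not tested. Same-numbered mice share only a number (2 pairs, correlation of deviations 0.314 across genes), and the block called 0 members.

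Of log2 fold changes near 0, Prdx3 changed sign with equal nuclear totals (0.007) and with edgeR (0.000). With 1 heart left out, these genes changed sign: Sod2 (-0.064 to 0.197), Prdx3 (-0.064 to 0.051), Maff (-1.106 to 0.013), Bach2 (-1.187 to 0.153), Mafk (-0.07 to 0.337), Cul3 (-0.113 to 0.07), Nfe2l1 (-0.154 to 0.211) and Gsk3b (-0.249 to 0.218). Of 736 single-gene values for 53 genes, 706 kept direction and call, 15 changed sign, 9 gained a call and 6 lost one. With 1 control left out, the lone control was assumed to vary like the knockouts, and the reverse. Hmox1 rested on 27 to 77 reads per library, the fewest of the members.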

Other observations

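Genes that produce oxidants had a median log2 difference of -0.07 over the 12 of 15 that passed the filter, with 3 higher in both knockouts and 2 lower (over all genes 18.1% and 17.5%). Duox1, among the 2 lower, passed the filter only by its values in the controls (10.8 and 14.8), so it could count only as lower. Of the oxidant producers limma called 0, and 1 was lower at an unadjusted p under 0.05, against 439 of all 14522 genes tested. Maob, a monoamine oxidase of the outer mitochondrial membrane that releases hydrogen peroxide, was at 318 and 300 in control hearts and 238 and 123 in knockout hearts (-0.85, adjusted p = 0.788, and -0.37 without knockout replicate 2), while Maoa, its relative, had 0.54 (adjusted p = 0.815). Cybb, the catalytic subunit of the phagocyte NADPH oxidase, had 0.38 (adjusted p = 0.833), or 0.19 without knockout replicate 2.

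Genes of iron handling and lipid peroxidation in ferroptosis, the cell death that GPX4 prevents, had a median of -0.06 over the 12 of 13 that passed, with 1 higher in both knockouts and 3 lower, against the same shares of all genes. limma called 0, and 1 was lower at an unadjusted p under 0.05, against 439 of all 14522 genes tested. Tfrc, the transferrin receptor, was at 4114 and 3072 in control hearts and 2368 and 2290 in knockout hearts (-0.61, SE 0.14), with an adjusted p of 0.577 by limma and 0.00377 by DESeq2. Slc40a1, the iron exporter ferroportin, was at 209 and 210 in control hearts and 172 and 158 in knockout hearts (-0.35, adjusted p = 0.806).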
